A study of Mus musculus with 6 samples.

Results

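Genes known from Schwann cells and their precursors, 8 in all, were followed in embryonic skin of the back: Foxd3, Gfra3, Ngfr, Cdh19, Fabp7, S100b, Egfl8 and Mbp. They were taken by symbol from the deposited count table, where each of the 8 matched 1 row of 55401 gene identifiers. The mouse embryos were at stage E15.5 and formed 2 groups: 3 Prmt5 cKO embryos, whose epidermis lacks Prmt5 according to the series title, and 3 controls. Each library was made from 1 embryo and held epidermis together with dermis, and the labels give neither the alleles of the controls nor the Cre line, beyond the word CRECT in the name of the deposited workbook. Schwann cells were not sorted, so in this bulk tissue fewer cells of a type and less RNA per cell cannot be told apart.

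Schwann cells are the glia of peripheral nerves. They arise from the neural crest through Schwann cell precursors, which travel into the skin along growing nerves, depend on neuregulin signals from axons, and in the embryo also give rise to melanocytes. Precursors express crest transcription factors, neurotrophin and GDNF family receptors and a fatty acid carrier, immature Schwann cells add S100b, and myelinating cells later make the proteins of the myelin sheath, such as Mbp.

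The deposited counts summed to between 45371876 and 58309148 in the Prmt5 cKO libraries and between 35667634 and 66122667 in the controls. Prmt5, which encodes a protein arginine methyltransferase, was lower in the cKO, at 28.2 ± 2.17 CPM against 59.2 ± 16.6 CPM in controls (CPM, counts scaled to a common library size by TMM; SD, n = 3 each), with a log2 fold change of -1.07 ± 0.19 (SE; edgeR adjusted p 0.00292) and no overlap between the groups. In replicates 1 to 3 Prmt5 measured 27.1, 30.7 and 26.8 CPM in cKO and 69.7, 40.1 and 67.9 CPM in controls. Control replicate 2 thus lay nearest to the cKO libraries. With pan-epithelial scaling the log2 fold change of Prmt5 was -0.16 and did not pass (edgeR adjusted p 0.402). Of 15 pan-epithelial genes 13 fell and 1, St14, rose (log2 fold change of 0.70), where 19.6% of all genes were called lower. The 15 genes had a summed level of 2610 to 2949 CPM in cKO and 5049 to 5425 CPM in controls. Rises were found in 14 of 15 dermal fibroblast, 11 of 12 endothelial and 15 of 15 skeletal muscle genes, where 16.3% of all genes were called higher. Fibroblast scaling makes the summed fibroblast counts equal between libraries, so the median of that list, then -0.044, was set by construction. The endothelial median flipped to -0.26 with this scaling. The fibroblast genes summed to 63128 to 82939 CPM in cKO and 41465 to 51903 CPM in controls. Prmt5 cKO replicate 2 stood apart in fat cell genes: Adipoq measured 0, 53.4 and 9.56 CPM in cKO replicates 1 to 3 and at most 0.285 CPM in the controls. The 6 fat cell genes summed to 76.6 to 303.7 CPM in cKO and 49.9 to 80.2 CPM in controls. Without cKO replicate 2, of the 8 genes Gfra3, Ngfr and Mbp were called, and Foxd3 (edgeR adjusted p 0.0917) and Fabp7 (0.0562) were not. Without cKO replicate 3, Gfra3 and Mbp were the called genes among the 8. The part of these shifts in the values below was not tested. The values of the 8 genes are also given below with the libraries scaled to the fibroblast, endothelial or pan-epithelial genes. Each such scaling used the summed counts of its list, so genes with the most counts weighed most. In the fibroblast list Col1a1, Col1a2 and Col3a1 averaged 19870, 16960 and 22094 CPM in cKO. In the pan-epithelial list Krt5 and Krt14 averaged 1492 and 450 CPM. Log2 fold changes of the fibroblast genes ran from 0.24 (Lum) to 0.77 (Col1a1), with Col1a2 at 0.64 and Col3a1 at 0.48. For called genes of the other Schwann lineage and signal lists, the calls and directions lost under these scalings are named.

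Of the 8 genes, Foxd3, Gfra3, Ngfr and Fabp7 rose in Prmt5 cKO skin, by 1.20-fold to 1.60-fold, and Mbp fell to 0.630 of its control level, while Cdh19, S100b and Egfl8 had positive log2 fold changes that did not pass the test. With the libraries scaled to the dermal fibroblast genes the direction of Foxd3, Ngfr and Fabp7 flipped and none of the 4 rises passed, and with scaling to the pan-epithelial genes Mbp flipped to a log2 fold change of 0.24. The test was edgeR's quasi-likelihood test over 19227 genes, with Benjamini-Hochberg adjusted p below 0.05. In the same test 35.9% of all genes were called, 16.3% higher and 19.6% lower, beside 4 and 1 of the 8 genes. The 8 genes had a median log2 fold change of 0.37, against -0.008 for all genes tested. In 5 genes every cKO library lay above every control library (23.3% of all genes did so), and in Mbp every cKO library lay below (26.6% of all genes). In the cKO group the highest value of 6 of the 8 genes was in replicate 1. Of the lists given below, those of fibroblast, endothelial, leukocyte, melanocyte, neuron, other Schwann lineage and signal genes also had their highest cKO sum there. The skeletal muscle, pericyte, fat cell, erythroid, central glia and pan-epithelial sums were highest in other cKO libraries. How many of all genes peak in replicate 1 was not counted.

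**Figure D1:**
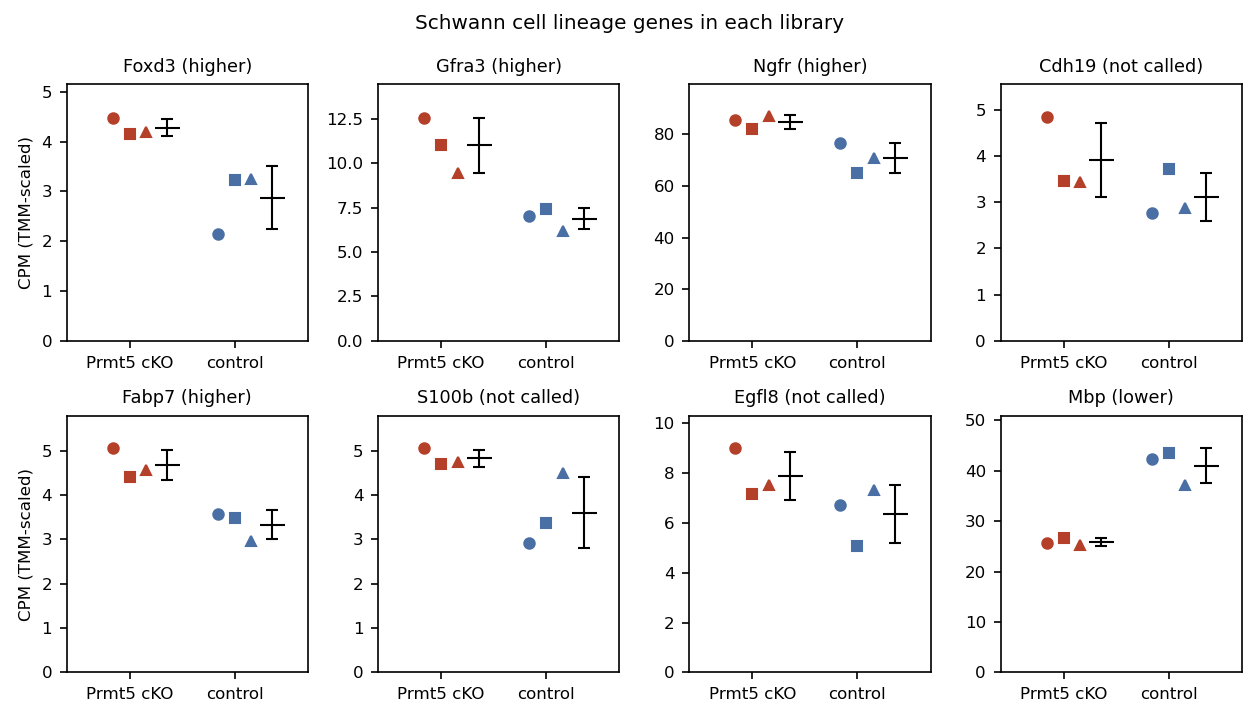
Level of each of the 8 genes in CPM (y axis, TMM-scaled, from 0) in the 3 Prmt5 cKO libraries (red, left) and the 3 control libraries (blue, right); circles, squares and triangles are replicates 1 to 3, and bars give the mean and SD. The groups do not overlap for Foxd3, Gfra3, Ngfr, Fabp7 and S100b, which lie higher in cKO, or for Mbp, which lies lower; with scaling to fibroblast genes Foxd3, Ngfr, Fabp7 and S100b flip direction, and with scaling to pan-epithelial genes Mbp does.

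Foxd3 (ENSMUSG00000067261.4; chromosome 4, 99656299 to 99658622, plus strand, GRCm38, 1 exon) encodes a forkhead transcription factor that specifies neural crest and is kept on in the glial branch while it is turned off in melanoblasts. It measured 4.48, 4.16 and 4.20 CPM in the cKO libraries, from 210, 246 and 197 counts, and 2.14, 3.23 and 3.25 CPM in the controls, from 95, 214 and 114 counts. The cKO libraries lay close together and above all controls, of which replicate 1 was the lowest. On the log2 scale cKO exceeded control by 0.57 ± 0.19 (SE; edgeR adjusted p 0.0476). The call lies at the threshold: it was lost in 5 of 6 fits that left out a library, with adjusted p of up to 0.115, and held without control replicate 2 (0.0478). The DESeq2 adjusted p in the authors' deposited table was 0.0477, and the q that their deposited Sleuth results give was 0.0135. A microRNA gene annotated inside the Foxd3 exon, Gm23366, had at most 1 count in any library.

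Gfra3 (ENSMUSG00000024366.8; chromosome 18, 34689898 to 34720387, minus strand) encodes the GPI-anchored co-receptor that binds artemin and signals through Ret. It measured 12.6, 11.0 and 9.45 CPM in cKO and 7.06, 7.40 and 6.21 CPM in controls. The lowest cKO library lay well above the highest control. Its log2 fold change of 0.67 ± 0.13 (SE; edgeR adjusted p 0.00508) was the highest of the 8 genes, and 90.2% of all tested genes had a lower value. The call held in all 6 fits that left out a library (adjusted p of 0.00503 to 0.0205).

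Ngfr (ENSMUSG00000000120.6; chromosome 11, 95568818 to 95587735, minus strand) encodes the p75 neurotrophin receptor, a marker of crest cells and Schwann cell precursors that mesenchyme of developing skin and hair follicles also expresses. It measured 85.4, 81.9 and 87.1 CPM in cKO and 76.7, 65.0 and 70.8 CPM in controls. The groups did not overlap, and the gap between the lowest cKO and the highest control library was slightly less than the SD of the controls (5.82 CPM). The difference, 0.26 ± 0.06 on the log2 scale (SE; edgeR adjusted p 0.0146), was the smallest of the 4 rises. It was not called without cKO replicate 3 (0.0547) or without control replicate 3 (0.0533).

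Cdh19 (ENSMUSG00000047216.8; chromosome 1, 110888326 to 110977584, minus strand) encodes a cadherin found on Schwann cell precursors and their descendants. It measured 4.84, 3.46 and 3.43 CPM in cKO and 2.77, 3.71 and 2.88 CPM in controls. The groups overlapped, since control replicate 2 lay above cKO replicates 2 and 3. A log2 fold change of 0.32 ± 0.20 (SE) did not pass (edgeR adjusted p 0.264), and without cKO replicate 1 it was 0.14.

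Fabp7 (ENSMUSG00000019874.11; chromosome 10, 57784881 to 57788450, plus strand) encodes the brain-type fatty acid binding protein, a marker of Schwann cell precursors and radial glia. It measured 5.05, 4.41 and 4.56 CPM in cKO and 3.56, 3.47 and 2.96 CPM in controls. All cKO libraries lay above all controls. The rise was 0.49 ± 0.15 on the log2 scale (SE; edgeR adjusted p 0.0327). This call was lost in 5 of 6 fits that left out a library, with adjusted p of up to 0.0966, and held without control replicate 1 (0.0469). In the authors' deposited table the DESeq2 adjusted p was 0.0571, and the q of the authors' deposited Sleuth results was 0.0192.

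S100b (ENSMUSG00000033208.7; chromosome 10, 76253853 to 76261159, plus strand) encodes a calcium-binding protein of immature and mature Schwann cells that fat cells and melanocytes also make. It measured 5.05, 4.70 and 4.76 CPM in cKO and 2.93, 3.38 and 4.50 CPM in controls. Control replicate 3 came close to the cKO libraries and the other controls lay lower. Its log2 fold change of 0.43 ± 0.18 (SE) did not pass (edgeR adjusted p 0.1003), and without control replicate 3 it was 0.62 with an adjusted p of 0.0240. In cKO replicate 2, the library with the most Adipoq, S100b was close to its level in replicate 3. The part of fat cells in these values was not tested. The annotated gene Dip2a lies over the 3′ end on the opposite strand, without shared exon bases.

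Egfl8 (ENSMUSG00000015467.14; chromosome 17, 34613349 to 34615971, minus strand) encodes a secreted protein with EGF-like domains, found among Schwann cell genes of the mouse. It measured 8.98, 7.17 and 7.51 CPM in cKO and 6.69, 5.06 and 7.32 CPM in controls. The groups overlapped at control replicate 3 and cKO replicate 2. With 0.32 ± 0.17 on the log2 scale (SE) it did not pass (edgeR adjusted p 0.180), and without control replicate 2 the value was 0.18. Its exons share 101 bases with Agpat1 on the opposite strand and 615 bases with the transcript Gm20460 on the same strand, which held 6 counts in cKO replicate 1 and 0 in the other libraries. Whether the counting used strand is not given in the sources used here, so the share of Egfl8 counts that belongs to Agpat1 is uncertain.

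Mbp (ENSMUSG00000041607.17; chromosome 18, 82475146 to 82585637, plus strand) encodes myelin basic protein, which compacts the myelin sheath, and from an upstream start the golli proteins, which are also made outside glia. It measured 25.8, 26.6 and 25.2 CPM in cKO, from 1208, 1576 and 1183 counts, and 42.4, 43.6 and 37.2 CPM in controls, from 1881, 2886 and 1305 counts. The cKO libraries lay within a narrow range far below the lowest control. The log2 fold change of -0.67 ± 0.08 (SE; edgeR adjusted p 2.47e-04) was a fall, and 10.3% of all tested genes had a lower value. The call held in all 6 fits that left out a library (log2 fold change of -0.73 to -0.61). The Sleuth value in the authors' deposited table was smaller, a natural-log b of -0.26, which is -0.38 on the log2 scale (q of 0.0301), than the -0.65 in their deposited DESeq2 table. The counts sum over 16 annotated transcripts, and how they divide between myelin and golli forms was not measured.

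**Figure D2:**
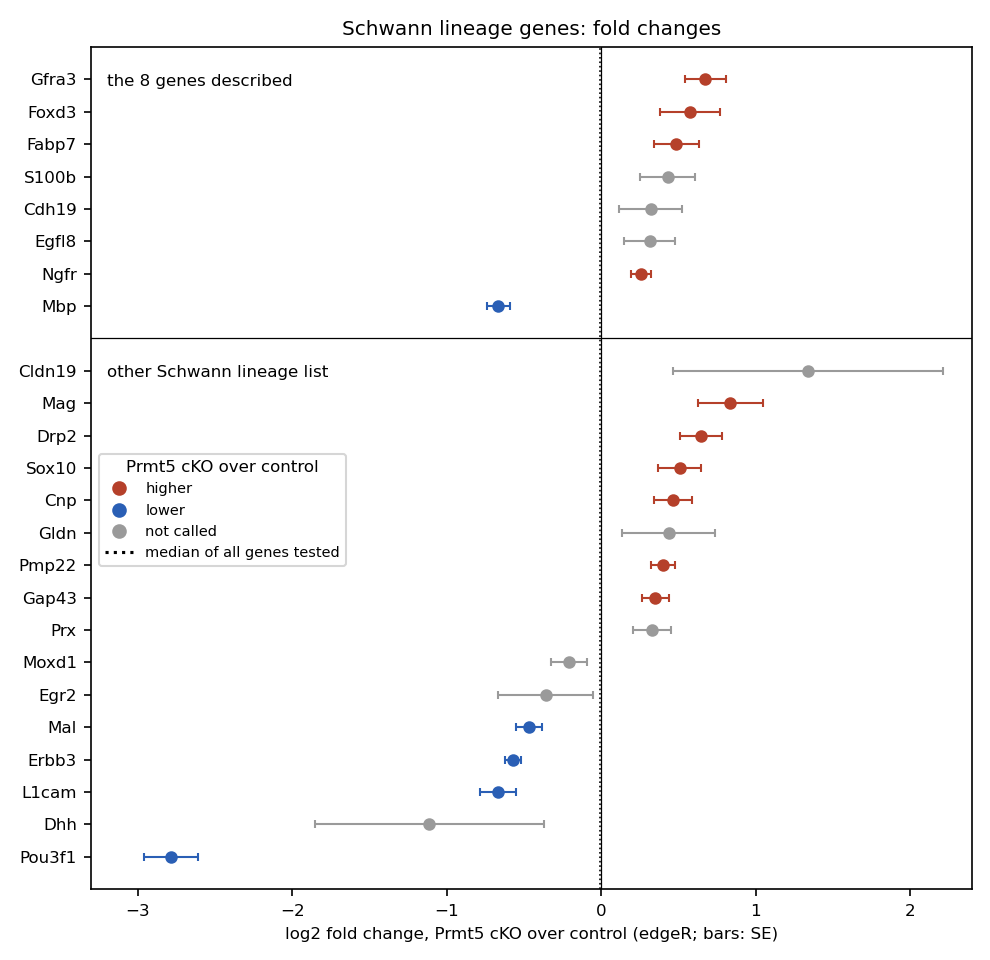
Log2 fold change, Prmt5 cKO over control (x axis, with SE bars), of the 8 genes (top) and of the 16 tested genes of the other Schwann lineage list (bottom), coloured by call at an adjusted p of 0.05 by edgeR; the dotted line is the median of all genes. Mbp is the only lower call among the 8 genes, and Pou3f1, at -2.79, is the lowest of the genes shown; scaling to fibroblast genes flips the direction of most higher calls, and scaling to pan-epithelial genes flips Mbp, Mal, Erbb3 and L1cam.

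The RefSeq promoter table (GRCm38.p6) held 5 of the 8 genes. The 250 bases before the RefSeq start are shown for the 3 of them that were called higher, 5′ to 3′ on the gene's strand, from chr4:99656049-99656298 (plus strand), chr11:95587699-95587948 (minus strand) and chr10:57784673-57784922 (plus strand). For Ngfr and Fabp7 that start lies inside the GENCODE gene given above, so the last bases of these windows belong to the annotated gene. Capitals mark letters that match 1 of 6 short motifs searched on both strands. These were the SOX factor motifs ACAAAG and, as a variant of it, ACAATG. The TATA box was searched as TATAAA, the GC box as GGGCGG, the CCAAT box by its own letters, and an E-box as CACGTG. The motifs were chosen with the sequences already seen.
Foxd3: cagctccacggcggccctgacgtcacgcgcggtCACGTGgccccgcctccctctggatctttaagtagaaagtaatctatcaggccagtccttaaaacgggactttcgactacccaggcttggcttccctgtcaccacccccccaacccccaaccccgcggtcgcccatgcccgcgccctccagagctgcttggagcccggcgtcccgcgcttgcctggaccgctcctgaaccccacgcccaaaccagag
Ngfr: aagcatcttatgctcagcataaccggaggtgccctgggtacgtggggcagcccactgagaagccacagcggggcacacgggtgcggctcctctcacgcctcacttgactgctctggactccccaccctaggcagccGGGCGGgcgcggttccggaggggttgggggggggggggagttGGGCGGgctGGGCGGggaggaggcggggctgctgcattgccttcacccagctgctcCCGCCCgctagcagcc
Fabp7: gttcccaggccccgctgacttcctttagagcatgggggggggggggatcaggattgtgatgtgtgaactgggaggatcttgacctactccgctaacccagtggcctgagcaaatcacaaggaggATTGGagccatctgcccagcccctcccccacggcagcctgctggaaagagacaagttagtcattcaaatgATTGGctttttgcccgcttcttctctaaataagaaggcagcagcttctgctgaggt

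The 3 promoters shared none of these motifs. Foxd3 held CACGTG at 217 to 212 bases before the start, letters found in 6.02% of 32851 promoter windows of the same length. Ngfr held 4 GC boxes, the nearest at 16 to 11 bases before the RefSeq start and within the GENCODE gene, and 32.7% of all windows held at least 1. Fabp7 held CCAAT on the other strand at 126 to 122 and 56 to 52 bases, a motif of 33.8% of windows. Neither SOX motif (16.5% and 10.7% of windows) was in the 3 windows, while Egfl8 held CTTTGT, the reverse complement of ACAAAG, at 111 to 106 bases. The GC share was 65.6% for Foxd3, 70.4% for Ngfr and 54.8% for Fabp7, against a median of 52.4% for all windows. A match is a run of letters and not a measured binding site.

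Levels of different genes were compared per length, as counts per kilobase of merged exons, scaled to a fixed sum in each library. Ngfr was the most abundant in both groups, at 83.2 ± 2.96 in cKO and 64.5 ± 3.76 in controls (SD, n = 3 each), and made up 51.9% and 52.0% of the sum of the 8 genes. Mbp ranked 6 in cKO, at 10.3 ± 0.250, and 2 in controls, at 15.2 ± 1.47. In the cKO, Gfra3 (18.7 ± 2.71), Egfl8 (15.1 ± 1.94) and Fabp7 (12.7 ± 0.987) followed Ngfr, and neighbours among these 3 overlapped. In controls Egfl8 (11.3 ± 1.87) and Gfra3 (10.8 ± 1.13) overlapped, as did Fabp7 (8.38 ± 0.860) and S100b (7.63 ± 1.71). Foxd3 and Cdh19 were the least abundant in both groups, Cdh19 at 3.09 ± 0.654 in cKO and 2.30 ± 0.441 in controls. Merged exons of all transcripts make up 8469 bases for Mbp, more than any single transcript may hold, so its level per length can be understated.

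**Figure D3:**
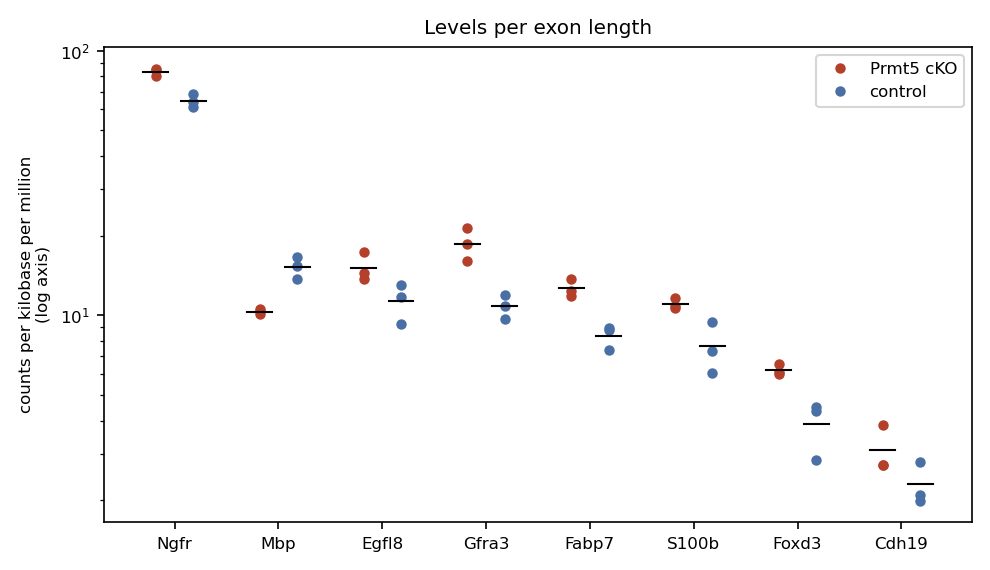
Level of each gene per exon length (counts per kilobase of merged exons, scaled to a fixed library sum, log axis) in the 3 Prmt5 cKO libraries (red, left) and the 3 control libraries (blue, right), with group means as lines and genes ordered by the control mean. Ngfr lies above all others in both groups, and Mbp is the only gene whose cKO libraries lie below its controls.

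How the libraries were scaled set the direction of most of these genes against 0. A scaling shifts all genes nearly alike by construction, so their position among all genes could hardly change. Scaled to the summed counts of the 15 dermal fibroblast genes, most of them from Col1a1, Col1a2 and Col3a1, the median of all genes was -0.60. The log2 fold changes were then 0.06 for Gfra3, -0.041 for Foxd3, -0.12 for Fabp7 and -0.32 for Ngfr. None of these passed the threshold (adjusted p of 0.0954 to 0.905 by edgeR), while Mbp fell further, by 1.26. Relative to the median of all genes, the median of the 8 genes was then 0.381, beside 0.382 with TMM scaling. Scaled to the endothelial genes, the median of all genes was -0.37, that of the 8 genes was 0.012, and of the 8 genes only Mbp passed, with a log2 fold change of -1.02. Scaled to the pan-epithelial genes, the median of all genes was 0.89 and all 8 genes passed as higher, Mbp with a log2 fold change of 0.24 (adjusted p of 0.0490 by edgeR), still below the median of all genes. RLE and upper-quartile scaling gave the directions of TMM for all 8 genes, and with upper-quartile scaling S100b passed as well (0.53, adjusted p of 0.0493 by edgeR).

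**Figure D4:**
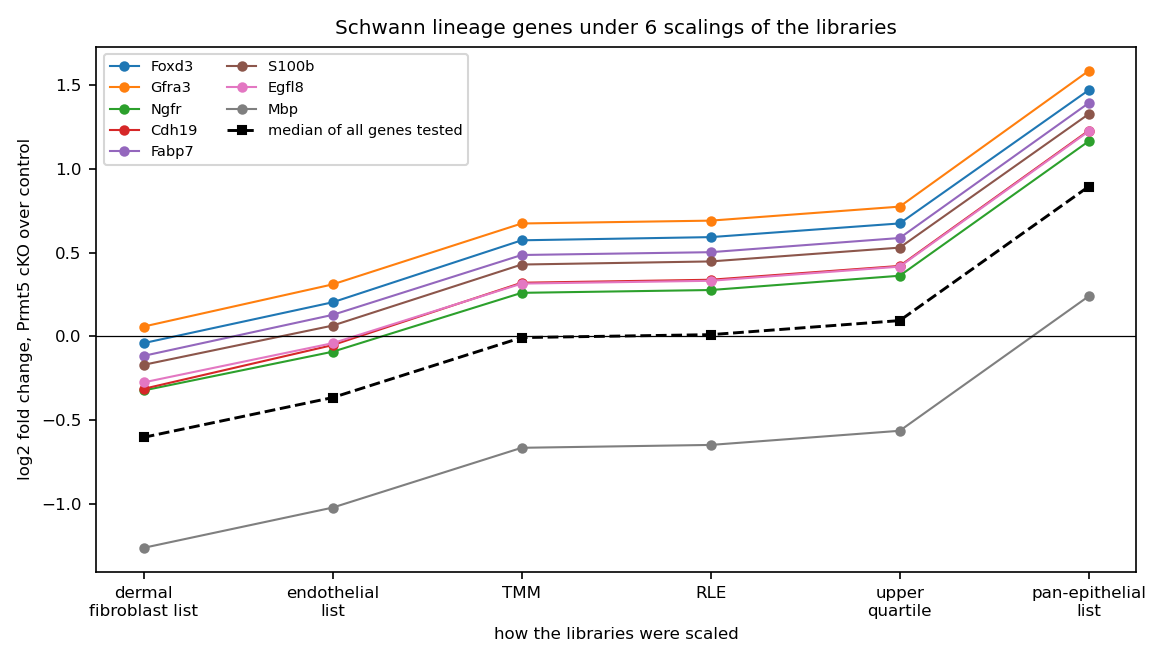
Log2 fold change, Prmt5 cKO over control (y axis), of the 8 genes under 6 ways of scaling the libraries (x axis), with the median of all 19227 genes as a dashed line. Of the 8 genes, 7 lie above the dashed line and Mbp below it under each scaling, which a near-equal shift of all genes fixes by construction. Their sign against 0 flips between scalings: Foxd3, Ngfr, Cdh19, Fabp7, S100b and Egfl8 with fibroblast scaling, and Mbp with pan-epithelial scaling.

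A list of 18 other Schwann lineage genes went both ways. Of 16 tested, 6 rose and 4 fell, leaving 6 that did not pass, where 16.3% of all genes were called higher and 19.6% lower. With fibroblast scaling 0 were called higher and 7 lower by edgeR, with endothelial scaling 0 and 5, and with pan-epithelial scaling 12 and 1. Their median log2 fold change was 0.34, flipped to -0.25 with fibroblast scaling and to -0.016 with endothelial scaling. Sox10, the transcription factor gene that defines the crest-derived glial and melanocyte lines, measured 20.5 ± 4.09 CPM in cKO and 14.4 ± 0.903 CPM in controls (SD, n = 3 each). Its log2 fold change was 0.51 ± 0.14 (SE; edgeR adjusted p 0.0221), and the call was lost without control replicate 2 or 3 (0.0633 and 0.0699). The myelin genes divided. Pmp22 (0.40), Mag (0.84), Cnp (0.47) and the dystroglycan-complex gene Drp2 (0.65) rose, as log2 fold changes. Prx (0.33) did not pass, and Mal, which encodes a raft protein of myelin and of epithelia, fell (-0.47). Of the other genes that did not pass, Cldn19 (1.34) and Gldn (0.44) were positive, and Dhh (-1.11), Egr2 (-0.36) and Moxd1 (-0.21) negative. Pmp22 averaged 195 CPM in cKO and Mag 2.52 CPM. Which cells of the skin made the RNA of the genes that rose was not measured. The growth-cone gene Gap43 (0.35) rose. With fibroblast scaling Sox10, Pmp22, Cnp and Gap43 flipped direction, and with endothelial scaling Gap43 did. Sox10, Pmp22 and Cnp were not called with endothelial scaling (adjusted p of 0.365 to 0.686 by edgeR). Mag and Drp2 kept their direction but not their call, at 0.26 and 0.035 with fibroblast scaling and 0.49 and 0.28 with endothelial scaling (adjusted p of 0.0987 to 0.899 by edgeR). Cnp was not called without cKO replicate 1 or control replicate 2 or 3 (adjusted p of 0.0613 to 0.0678 by edgeR), nor Mag without cKO replicate 3 (0.0527).

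The 4 falls were in Pou3f1, Erbb3, Mal and L1cam. Pou3f1, a POU transcription factor gene of promyelinating Schwann cells and of suprabasal epidermis, fell to 2.28 ± 0.123 CPM in cKO, against 15.8 ± 3.31 CPM in controls (SD, n = 3 each). Its log2 fold change of -2.79 kept its direction under all 5 other scalings. Erbb3, a neuregulin receptor gene that epithelia also express, measured 100.3 ± 3.74 CPM in cKO and 148.9 ± 6.21 CPM in controls, and the cell adhesion gene L1cam 14.9 ± 2.28 CPM in cKO and 23.7 ± 1.45 CPM in controls. Both flipped direction with pan-epithelial scaling, as Mal did. Pmp2, a myelin lipid carrier gene, had no counts in any library, and the astrocyte and Schwann cell gene Gfap was below the filter.

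Signal genes were counted in a list of 23 ligands, receptors and partners of the neuregulin, GDNF family and neurotrophin pathways. Of 22 tested, 7 rose and 4 fell, leaving 11 that did not pass, beside the same 16.3% and 19.6% of all genes. With fibroblast scaling 1 was called higher and 9 lower, with endothelial scaling 3 and 8, and with pan-epithelial scaling 17 and 0. The list median was 0.099 on the log2 scale, flipped to -0.50 with fibroblast and -0.26 with endothelial scaling. Nrg1, a neuregulin gene, rose to 2.58 ± 0.281 CPM in cKO, against 0.746 ± 0.350 CPM in controls (SD, n = 3 each). This rise of 1.76 ± 0.33 on the log2 scale (SE; edgeR adjusted p 0.00381) kept its direction and call under all 5 other scalings. Which cells made the Nrg1 RNA, and whether its protein reaches Schwann cells, was not measured. The neuregulin receptor genes Erbb2 (-0.84) and Erbb3 (-0.57) fell, and flipped direction with pan-epithelial scaling. Ret, through which Gfra3 signals, measured 4.97 ± 0.331 CPM in cKO and 3.33 ± 0.583 CPM in controls, with a log2 fold change of 0.58 ± 0.17 (SE; edgeR adjusted p 0.0283). That call was lost in 4 of 6 fits that left out a library (adjusted p of up to 0.0888), and with fibroblast (0.013) and endothelial scaling (0.24). Artn, the ligand of Gfra3, did not pass (0.44), and of the sister co-receptor genes Gfra1 rose (0.68, but 0.079 and not called with fibroblast scaling), Gfra4 fell (-0.63, flipped with pan-epithelial scaling) and Gfra2 did not pass (-0.17).

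Among genes of neurotrophin signalling, the receptor gene Ntrk3 (0.60) and the co-receptor gene Sorcs2 (0.68) rose. With fibroblast scaling they were at 0.023 and 0.083, and neither was called (edgeR adjusted p 0.935 and 0.685), and with endothelial scaling Ntrk3 was not called (0.183). The adaptor genes Bex3 (0.45) and Maged1 (0.50) rose, flipped with fibroblast scaling and were not called with endothelial scaling. Sort1, which encodes the pro-neurotrophin co-receptor sortilin, fell (-0.88, flipped with pan-epithelial scaling). The call of Ntrk3 was lost in 4 of 6 fits that left out a library (edgeR adjusted p of up to 0.0690). Bdnf, Ntf3, Ntf5 and Ntrk2 did not pass.

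Markers of neighbouring cell types gave the setting of these values, beside 16.3% of all genes called higher and 19.6% lower. Of 12 genes of central glia and neural tube, Olig2 and Sox1 had no counts, 8 others were below the filter, and Slc1a3 and Aldh1l1, which many tissues express, rose (0.33 and 0.64). Neither was called with fibroblast or endothelial scaling. Of 13 tested neuron genes Isl1 and Uchl1 rose, Stmn2 fell and 10 stayed short of the threshold, and the list had a sum of 41.6 to 46.9 CPM in cKO and 37.7 to 43.2 CPM in controls. With fibroblast scaling 0 neuron genes were called higher and 2 lower, and with endothelial scaling 1 and 2. Of 10 tested melanocyte genes Mlana (1.89) and Ednrb (0.42) rose, 8 did not pass, and the median was 0.31. With fibroblast scaling 1 melanocyte gene was called higher and 1 lower, and with endothelial scaling 1 and 0. Calls numbered 5 higher of 10 leukocyte genes, 4 higher and 1 lower of 7 pericyte genes, 1 higher of 3 tested fat cell genes, and 0 of 7 erythroid genes by edgeR, where Hba-a1 and Hbb-y had an unadjusted p of 0.0346 and 0.0351. Under fibroblast or endothelial scaling 0 leukocyte genes were called, and 0 pericyte genes were called higher and 2 lower. The erythroid sums ran from 5705 to 10972 CPM in cKO and 4246 to 6777 CPM in controls. The medians of the dermal fibroblast (0.53), leukocyte (0.39), endothelial (0.33), pericyte (0.24) and skeletal muscle (0.94) lists lay on the same side as the 0.37 of the 8 Schwann genes, and that of the pan-epithelial list (-1.05) on the side of Mbp. With fibroblast scaling the medians of the leukocyte, endothelial and pericyte lists flipped direction, as did those of the neuron and melanocyte lists. Those of skeletal muscle (0.36) and pan-epithelial (-1.64) kept theirs, and that of the fibroblast list (-0.044) was set by the scaling itself. Their part in the values of the 8 genes was not tested.

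**Figure D5:**
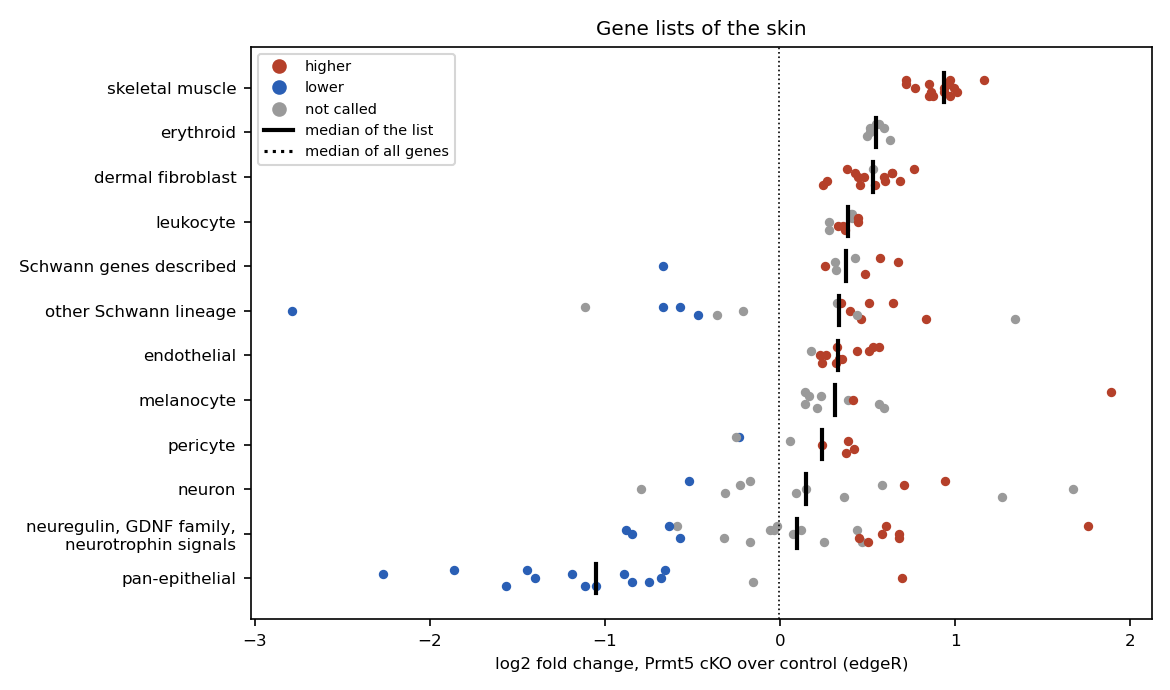
Log2 fold change, Prmt5 cKO over control (x axis, TMM scaling), of every tested gene in 12 lists, coloured by call, with the list median as a bar and the median of all genes as a dotted line. The 8 Schwann genes lie among the stromal lists with a median of 0.37 except Mbp at -0.67. Against 0, 6 of the 8 flip with fibroblast scaling and Mbp with pan-epithelial scaling.

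The genes with the most similar profile were sought among 11912 genes with a mean log2 CPM of at least 2. The measure was the root mean square difference in log2 CPM over the 6 libraries after centring each gene. Gfra3 was nearest to Col12a1 (0.0182) and Svep1 (0.0373), genes of matrix proteins. Ngfr was nearest to Cnn3 (0.0298) and Irak3 (0.0315), and Foxd3 to Pde2a (0.0740) and Alpk2 (0.0779). For Fabp7 the nearest were Tnfrsf23 (0.0439) and S1pr3 (0.0463), for S100b Cd68 (0.0431) and Dpysl4 (0.0608), for Egfl8 Rnase4 (0.0384) and Chpf2 (0.0712), and for Cdh19 B4galnt4 (0.0724) and Ntsr1 (0.0731). Mbp was nearest to Mtmr1 (0.0250) and Dennd2c (0.0266), which both fell (-0.68 and -0.64 as log2 fold changes). No gene of the Schwann lists was among the nearest pairs, but the limit on level had left out those with low levels, such as Mag, beforehand. The 6 libraries in 2 groups also give many genes a similar profile.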

How the data were processed

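The deposited table holds counts, as whole numbers and not normalized, of 55401 genes in 6 libraries. Per the labels' protocols these were stranded mRNA libraries (TruSeq) sequenced as paired ends on a NovaSeq. Per the submitters' processing notes STAR, StringTie, DESeq2 and mm10 were used, without versions or roles. The DESeq2 log2 fold changes and adjusted p-values, and the Sleuth b on a natural log scale with its q-values, are the authors', per the file headers. In every library more genes held a count of 3 than of 2, so a count may stand for less than 1 read.

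Here edgeR 4.0.16, run in R 4.3.3, kept 19227 genes (filterByExpr), scaled by TMM and compared the groups with the quasi-likelihood test, adjusted by Benjamini-Hochberg over all genes. SEs were taken from the F statistic. Tested on simulated data, the fit recovered the larger folds, but the share of false calls ran above the nominal rate, which bears on calls close to the threshold. The simulation changed few genes, evenly up and down and none at low levels. Recovery of changes at low levels, or under a broad shift as in these data, was therefore not tested. P-values measure the spread between 3 embryos a group. An exact two-sided permutation test of 3 against 3 could not go below p = 0.1. Coordinates and lengths are from GENCODE M21 (GRCm38), matched for 99.5% of genes.

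The genes and lists were chosen with earlier results of these data known. Named were the 8 genes, called members of the Schwann and signal lists, some overlapping genes and the nearest 2 profiles per gene at a mean log2 CPM of at least 2. Other genes were named after their values were seen. Some genes of these lists are not reported here. Alternatives were other scalings, filters (none, or CPM of 1 in 3 libraries), DESeq2 1.42.0, limma-voom 3.58.1, a replicate block, a threshold of 0.01, the authors' adjusted p, and leaving out each library.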

Additional observations from a re-analysis of the deposited data

How the results depend on the processing

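The number of the 8 genes called higher was 4, and 4 with RLE scaling, the CPM filter and limma-voom, 5 with upper-quartile scaling, 3 with DESeq2 and by the authors' deposited adjusted p, 2 with no filter (Gfra3 and Ngfr), 1 at a threshold of 0.01, 0 with fibroblast or endothelial scaling, 8 with pan-epithelial scaling, and 1 to 3 when a library was left out. The number called lower was 1 throughout, except 0 with pan-epithelial scaling. Their median log2 fold change was -0.22 with fibroblast, 0.012 with endothelial and 1.28 with pan-epithelial scaling, and 0.33 to 0.44 when a library was left out. Over all genes, 6906 calls (3139 higher, 3767 lower) became 11229 (378 higher, 10851 lower) with fibroblast scaling, 9915 (899 higher, 9016 lower) with endothelial scaling, 15859 (15018 higher, 841 lower) with pan-epithelial scaling, 7233 (4514 higher, 2719 lower) with upper-quartile scaling, 4398 (1825 higher) at 0.01, and 5705 to 5897 when a library was left out.

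Values that changed sign with fibroblast scaling were Foxd3 -0.041, Ngfr -0.32, Cdh19 -0.31, Fabp7 -0.12, S100b -0.17, Egfl8 -0.28, Sox10 -0.11, Pmp22 -0.18, Cnp -0.12, Gap43 -0.24, Bex3 -0.15 and Maged1 -0.091. With endothelial scaling they were Ngfr -0.092, Cdh19 -0.052, Egfl8 -0.041 and Gap43 -0.0045, and with pan-epithelial scaling Mbp 0.24, Erbb3 0.34, Mal 0.44, L1cam 0.25, Erbb2 0.066, Gfra4 0.27 and Sort1 0.022. These scalings shift all genes nearly alike, by construction. Leaving out a library reversed 0 of 174 values for 29 named genes, and 26 lost their call.

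The replicate numbers are not known to pair the embryos. Same-numbered libraries had correlations of -0.079 to -0.043 in their deviations, and 0 of 3 cKO libraries correlated best with their own number. With 3 libraries a group, this check cannot decide whether embryos shared a litter or batch. With the replicate block 2 of the 8 genes were called higher, 1 lower, and 6098 of all genes; Foxd3 and Fabp7 were the pair no longer called (adjusted p of 0.0733 and 0.0552 by edgeR). Foxd3, Cdh19, Fabp7 and S100b rest on 95 to 278 counts a library, the lowest of the 8 genes; what this depth limits was not tested.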
